A study of Mus musculus with 8 samples.

Results

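The mitochondrial genome is represented in the deposited gene counts by 37 of 52459 rows, taken as every row whose gene symbol begins with mt-. These 37 genes are the full set annotated on the mouse mitochondrial chromosome: 13 protein-coding genes, 2 ribosomal RNA genes and 22 transfer RNA genes. They were followed across 8 libraries of poly(A)-enriched RNA, each from 1 mouse, in a study of leukaemia driven by AE9a, a shortened RUNX1-RUNX1T1 fusion protein. Of the 37 rows, 21 had at least 1 count and 16 were at 0 in every library.

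All libraries share one origin. Marrow cKit+ cells of C57BL/6J mice were transduced with a retrovirus that carries AE9a. The cells also hold a doxycycline-inducible hairpin against Tet2 (genotype RTA shTet2). AE9a+ cells were transplanted with wild-type support marrow into lethally irradiated C57BL/6J recipients aged 6 to 8 weeks. The groups were secondary recipients without doxycycline given PBS and labelled Tet2 restored (mice 21 and 23), secondary recipients on doxycycline given ascorbate (mice 28 and 30), secondary recipients on doxycycline given PBS (mice 16, 17 and 19), and a single primary recipient, also on doxycycline (mouse 12). Splenic AE9a+ cells were taken when the mice were moribund, so the libraries can also hold cells of the host and of the support marrow. Doxycycline withdrawal and restoration of Tet2 coincide and cannot be told apart.

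Mitochondrial DNA is a small circle, present in many copies per cell, that is transcribed from both strands into long RNAs which are cut at the tRNAs into single messengers. Its messengers encode core subunits of respiratory complexes I, III, IV and V, and its rRNAs and tRNAs serve the ribosomes inside the organelle, while every protein that copies, transcribes or translates this genome is encoded in the nucleus. Doxycycline is known to inhibit bacterial and mitochondrial ribosomes. Most mitochondrial messengers carry a short poly(A) tail, whereas in human cells the ND6 messenger lacks one, and nuclear chromosomes hold copies of mitochondrial DNA acquired during evolution.

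Tet2, the gene targeted by the hairpin, had 14.1 and 23.1 CPM (counts per 1 M of the TMM-scaled library total) in mice 21 and 23, 13.7 and 11.7 in the ascorbate pair, 12.6, 12.8 and 13.4 under PBS knockdown, and 9.26 in mouse 12. Mouse 21, with a 95% Poisson interval of 12.6 to 15.7, overlapped the PBS knockdown libraries, so its group is called labelled Tet2 restored. Libraries held 18.1 M to 34.2 M counts. The rank correlation of a library's deviation with transcript length across 11398 genes ran from −0.45 in mouse 21 to 0.42 in mouse 16. Of the progenitor markers Kit, Cd34, Runx1t1, Mpo and Elane, at most 1 was at 0 in any library, but some were low. Mpo averaged 0.87, 0.62 and 0.66 CPM in labelled Tet2 restored, ascorbate and PBS knockdown mice. In the same order Cd34 averaged 0.23, 0.74 and 1.80 CPM, and Kit 83.9, 90.6 and 111 CPM. Runx1t1, which also names a part of the fusion, averaged 229, 132 and 105 CPM.

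Counts stopped abruptly along the mitochondrial map. The protein-coding genes mt-Co2 (chrM:7013-7696), mt-Atp8 (chrM:7766-7969), mt-Atp6 (chrM:7927-8607), mt-Co3 (chrM:8607-9390), mt-Nd3 (chrM:9459-9806) and mt-Nd4l (chrM:9877-10173; coordinates here and below from GRCm38, GENCODE M21) held 14 counts in all 8 libraries together. They encode subunits of cytochrome c oxidase, ATP synthase and complex I. mt-Co2 had 9 counts in mouse 28, mt-Atp6 had 5 in mouse 19, and the other 4 had 0 in every library, which allows at most 3 counts in each. The 5 tRNA genes between them, mt-Ts1, mt-Td, mt-Tk, mt-Tg and mt-Tr, were at 0 as well. By contrast the 5 protein-coding genes farther out, mt-Nd1, mt-Nd2, mt-Nd5, mt-Nd6 and mt-Cytb, held 11517187 counts together, and mt-Co1 and mt-Nd4 on the borders held 7403347.

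These 11 rows at or near 0 lie in a stretch of 4653 bases, chrM:6390-11042, whose annotated parts have near-identical copies side by side on chromosome 1. A search of the 37 mitochondrial transcripts against the nuclear transcripts of the same annotation placed 7 unprocessed pseudogenes, Gm29216, Gm28661, Gm10925, Gm28437, Gm28438, Gm10222 and Gm28439, between 24611535 and 24616197 on the minus strand of chromosome 1, in the same order as their mitochondrial counterparts. No copy of the 5 tRNAs, and a copy of only 43 of the 204 bases of mt-Atp8, could be read from this annotation. The sequence between the pseudogenes was therefore not compared, only their spacing. Chromosome 1 and mitochondrial positions of aligned bases summed to 24622578 for 5 pseudogenes, and to 24622577 for Gm10222 and Gm28439. Within each of these sets the spacing was thus the mitochondrial one. Over 4140 aligned bases the 7 pseudogenes and their counterparts differed at 2 positions, and the lowest identity of any of these copies was 99.7%. Only chromosome 1 copies of high identity were taken into this stretch, so that lowest value is in part set by the choice. The short matches Gm28926 and Gm28925, farther along chromosome 1 at 97.1%, were left out. The alignment of Gm29216 begins at its base 10, and its earlier bases are not in the count of differences. The stretch takes in 483 of the 1545 bases of mt-Co1 and 876 of the 1378 bases of mt-Nd4, the genes on its borders, and spans the 6 messengers near 0. The first 60 bases of mt-Nd3 (chrM:9459-9518, plus strand) and of Gm28438 (chr1:24613060-24613119, minus strand), and the first 60 copied bases of mt-Co1 (chrM:6390-6449) and their counterpart in Gm29216 (chr1:24616129-24616188), show both differences, which are in capitals. Sequences are from GENCODE M21 transcripts, written 5′ to 3′.

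mt-Nd3: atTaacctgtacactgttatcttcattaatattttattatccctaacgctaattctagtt
Gm28438: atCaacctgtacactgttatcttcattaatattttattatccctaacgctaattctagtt
mt-Co1: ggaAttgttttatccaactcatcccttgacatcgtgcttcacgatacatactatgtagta
Gm29216: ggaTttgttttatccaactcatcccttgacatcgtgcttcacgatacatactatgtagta

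A gene with 0 counts and its copy were identical over their first 120 bases. They are mt-Nd4l (chrM:9877-9996, plus strand) and Gm10222 (chr1:24612581-24612700, minus strand), which had 0 counts in every library too.

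mt-Nd4l: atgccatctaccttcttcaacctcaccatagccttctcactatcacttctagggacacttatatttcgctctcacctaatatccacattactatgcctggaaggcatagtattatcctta
Gm10222: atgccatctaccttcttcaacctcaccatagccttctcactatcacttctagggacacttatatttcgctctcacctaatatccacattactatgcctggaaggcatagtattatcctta

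Counted genes have copies too, at lower identity. On chromosome 2, Gm13340 matches all 1545 bases of mt-Co1 at 97.6%, and Gm13339 matches 510 of the 1038 bases of mt-Nd2 at 96.7%. A more distant pair is shown for comparison. mt-Cytb, the cytochrome b of complex III, matches the processed pseudogene Gm11410 on chromosome 4 over 1142 bases at 92.9% identity. The stretch shown here (chrM:14545-14664 and chr4:80004389-80004508, both plus strand) has 9 differences, in capitals.

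mt-Cytb: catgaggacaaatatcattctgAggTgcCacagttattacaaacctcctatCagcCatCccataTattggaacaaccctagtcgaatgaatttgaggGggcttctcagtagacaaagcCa
Gm11410: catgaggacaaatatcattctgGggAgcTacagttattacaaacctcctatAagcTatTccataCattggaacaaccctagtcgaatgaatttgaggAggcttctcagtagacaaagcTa

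**Figure D1:**
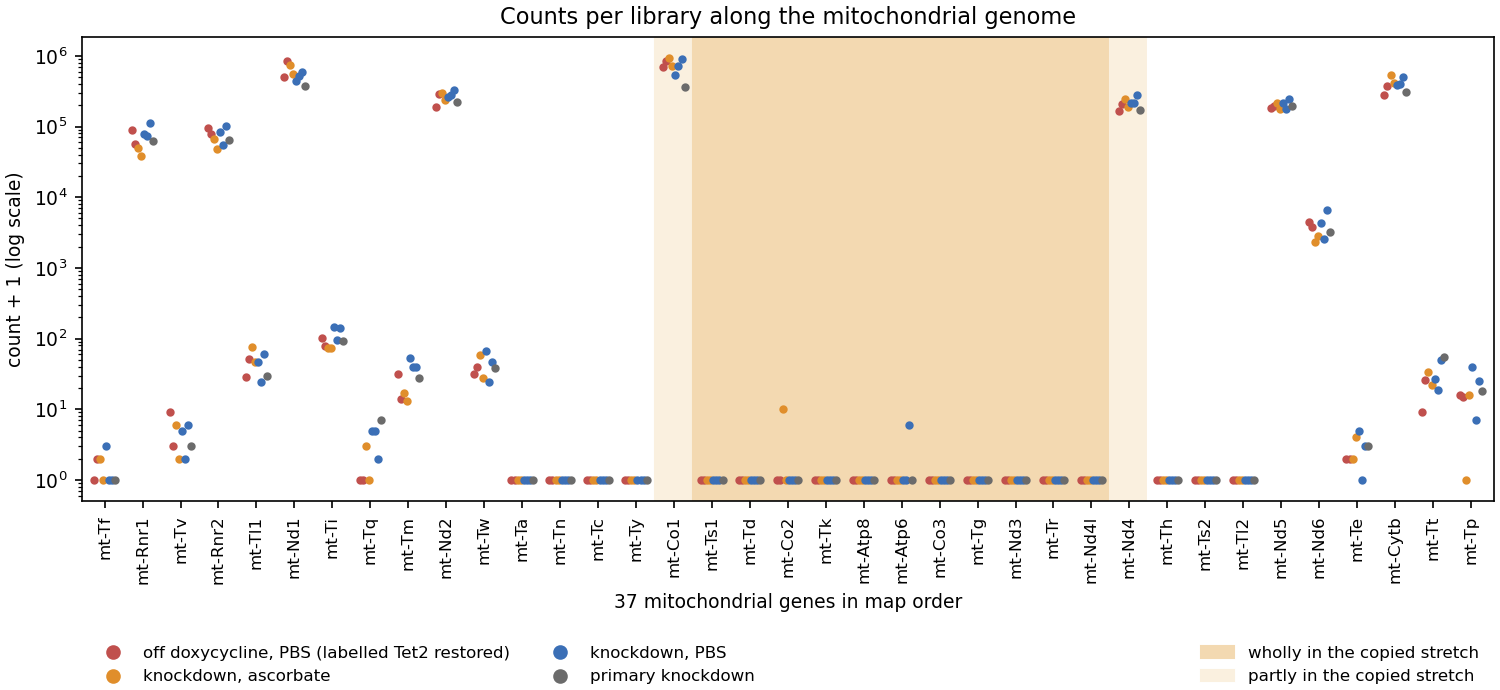
Counts plus 1 (log scale) of all 37 mitochondrial genes in map order, with 1 point per library coloured by group and the stretch that is copied on chromosome 1 shaded. Inside the stretch 2 points lie above 0, at 9 and 5 counts, while mt-Co1 and mt-Nd4 on its borders stand far above it in every library.

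The chromosome 1 copies themselves had few counts. Summed over the 7 pseudogenes there were 58 and 58 counts in mice 21 and 23, 42 in mouse 28, 48, 12 and 29 under PBS knockdown, and 34 in mouse 12. Mouse 30 was the exception with 27588, of which 27539 belonged to Gm28437, the copy of the complex IV subunit gene mt-Co3. Neither side of these pairs therefore held counts near those of neighbouring genes in 7 libraries. In mouse 30 the level of Gm28437 per kilobase was 6.12% of that of mt-Nd1. A more distant copy of mt-Co2, Gm13341 on chromosome 2, aligned with all 684 of its bases at 95.9% identity. Gm13341 had 418 and 566 counts in mice 21 and 23, and 529 and 414 in mice 28 and 30. It had 286, 458 and 564 counts under PBS knockdown and 208 in mouse 12. How the authors' counting treated reads that match 2 places is not given in the sources used here, and its part in these zeros was not tested. Every test of single genes below, apart from fits without a count filter, rests on the 7 messengers, 2 rRNAs and 6 tRNAs with enough counts. For the 6 messengers in the copied stretch no level is compared, apart from mt-Co2 in a fit without that filter. Shares of counts take all 37 rows, to which these 6 add 14 counts over the 8 libraries.

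Mitochondrial rows took 9.49% and 14.5% of all counts in mice 21 and 23, labelled Tet2 restored, 17.1% and 9.73% in the ascorbate mice 28 and 30, 9.09%, 10.1% and 11.4% in the PBS knockdown mice 16, 17 and 19, and 5.16% in the primary mouse 12. At these depths the 95% Wilson intervals, which cover counting error only, were narrow (17.11% to 17.14% in mouse 28, and 5.15% to 5.17% in mouse 12). The 3 secondary groups overlapped, since mouse 21 and mouse 30 lay within the PBS knockdown range and mouse 23 and mouse 28 above it. Messengers made up most of the share, with 8.69% and 13.8% of all counts in mice 21 and 23, 16.5% and 9.38% in the ascorbate pair, 8.43%, 9.57% and 10.6% under PBS knockdown, and 4.79% in mouse 12. The tRNAs held at most 0.00158% of counts in any library.

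The mean share was 12.0% ± 3.54 in mice labelled Tet2 restored (SD, n = 2) and 10.2% ± 1.14 in PBS knockdown mice (n = 3), a difference of 1.81 percentage points (two-sided exact permutation p = 0.6). It was 13.4% ± 5.23 under ascorbate (n = 2), which is 3.23 points above PBS knockdown (exact p = 0.6). Between mice labelled Tet2 restored and ascorbate mice the difference was −1.43 points (exact p = 0.667), and all 3 p-values adjusted over these tests were 0.667. The designs cannot reach 0.05, as the smallest possible p is 0.2 for 2 against 3 libraries and 0.333 for 2 against 2. Each difference changes sign when 1 library is left out: the first is −0.70 without mouse 23, the second −0.46 without mouse 28, and the third 2.27 without mouse 28 or 1.07 without mouse 21. In bulk RNA a different mix of cells and a different amount of mitochondrial RNA per cell cannot be told apart.

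**Figure D2:**
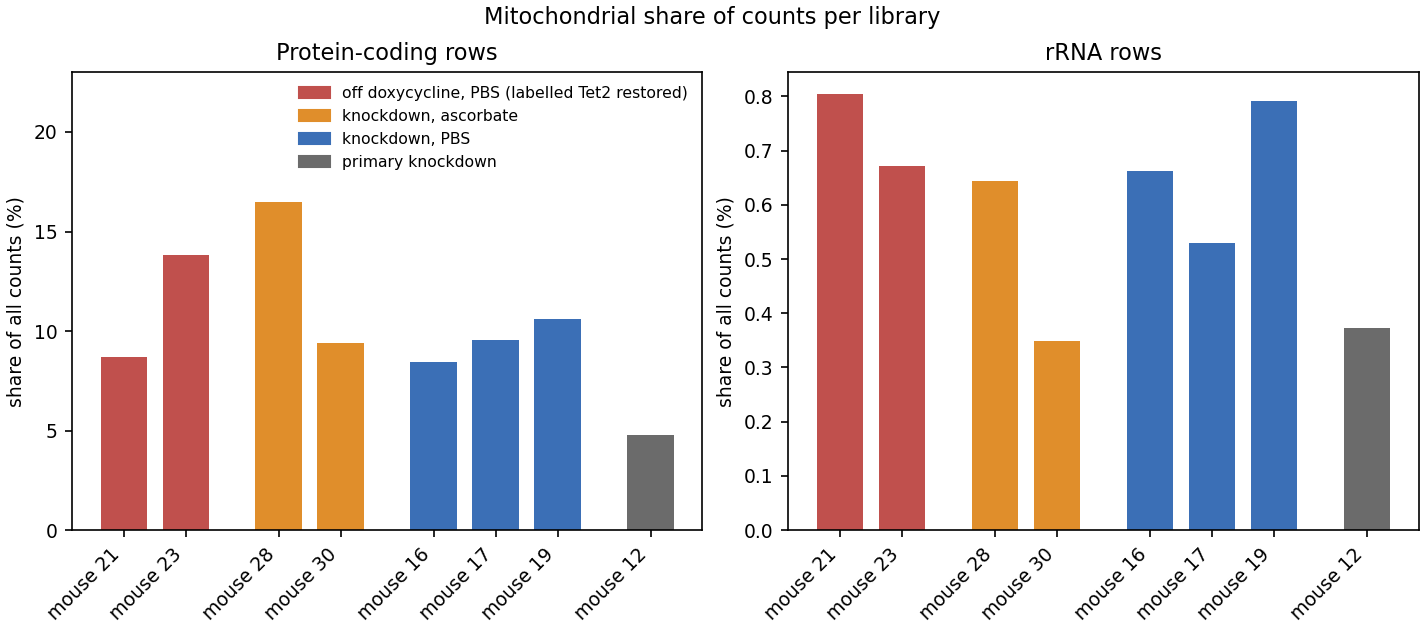
Share of all counts, in percent, taken by the 13 protein-coding rows (left) and the 2 rRNA rows (right), with 1 bar per mouse coloured by group. Mouse 28 is highest for protein-coding rows at 16.5%, mouse 21 is highest for rRNA at 0.804%, and mouse 12 is lowest for protein-coding rows at 4.79%.

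The messengers differed widely in level when scaled by length. By the authors' deposited FPKM, mt-Nd1, a membrane subunit of complex I, was highest in all 8 libraries, with a mean of 26193 FPKM (range 11141 to 46940). mt-Co1, the catalytic subunit of complex IV, followed at 20168 FPKM, then mt-Cytb at 15115, mt-Nd2 at 10774, mt-Nd4 at 6513 and mt-Nd5 at 4629, the last 3 all complex I subunits. mt-Nd6, the only messenger encoded on the other strand, averaged 296 FPKM and never exceeded 457. Neighbours in this order overlapped in range over the libraries, apart from mt-Nd5 (lowest 3072) and mt-Nd6, yet the rank of every gene was the same in at least 7 of 8 libraries.

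The order changes once the bases copied on chromosome 1 are left out of the length. The FPKM values divide by full lengths, 1545 bases for mt-Co1 and 1378 for mt-Nd4, although the genes wholly inside the copied stretch had almost no counts. A calculation added after the values were seen used only the 1062 bases of mt-Co1 and the 502 of mt-Nd4 outside that stretch. It takes reads from the copied bases as uncounted, which was not tested. All of mt-Co1 also matches Gm13340 on chromosome 2, at 97.6% identity. By this calculation mt-Co1 was highest at a mean of 29688 CPM per kilobase and mt-Nd1 next at 26493. That order held in 6 of 8 libraries and was the other way round in mice 23 and 12. In that scale mt-Nd4 came next at 18073, above mt-Cytb at 15280, mt-Nd2 at 10889 and mt-Nd5 at 4679.

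Doxycycline withdrawal, labelled Tet2 restoration, was set against PBS knockdown to see whether mitochondrial transcripts differ after the hairpin is switched off. None of the 15 mitochondrial genes tested passed an adjusted p of 0.05 in edgeR's quasi-likelihood test, where 0% of 12137 genes passed. None had an unadjusted p under 0.05 either, against 29.2% of all genes tested. DESeq2 and limma voom also called 0 mitochondrial genes, beside 17.8% and 0% of genes tested. Without a count filter edgeR called 1, mt-Nd1 (adjusted p 0.0165). The 7 messengers had a median log2 fold change of 0.08, beside −0.0020 over all genes tested, with 4 positive and 3 negative.

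mt-Nd1 had the largest estimate, at 20473 and 42828 CPM in mice 21 and 23, against 17677, 21584 and 21197 CPM in mice 16, 17 and 19. Mouse 23 stood apart and mouse 21 lay inside the PBS knockdown range. As labelled Tet2 restored over PBS knockdown the log2 fold change came to 0.65 (standard error, SE, 0.34, edgeR adjusted p 0.235). For mt-Co1 the levels were 28282 and 42222 CPM in mice 21 and 23, against 21869, 29014 and 32687 CPM under PBS knockdown, with a log2 fold change of 0.34 (SE 0.29, adjusted p 0.462). Mouse 23 was again above every PBS knockdown library.

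mt-Cytb leaned the other way, with 11675 and 18855 CPM in mice 21 and 23, against 15639, 16384 and 18204 CPM in mice 16, 17 and 19 (log2 fold change −0.13, SE 0.29, adjusted p 0.784). Here mouse 21 was the lowest of the 7 secondary libraries and mouse 23 just above the PBS knockdown range. mt-Nd2, at 7827 and 14344 CPM against 10704, 11306 and 11711 CPM, and mt-Nd4, at 6850 and 10544 CPM against 8565, 8719 and 9952 CPM, showed the same split. Their log2 fold changes were −0.02 and −0.06. mt-Nd5, the largest membrane subunit of complex I, had 7508 and 9894 CPM against 8542, 7374 and 8730 CPM, and mt-Nd6 had 181 and 190 CPM against 175, 106 and 239 CPM. Both overlapped, with log2 fold changes of 0.08 and 0.10 that turned negative with a length offset.

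The small-subunit rRNA mt-Rnr1 (chrM:70-1024) had 3722 and 2826 CPM in mice 21 and 23, against 3162, 3000 and 4078 CPM under PBS knockdown. The groups overlapped (log2 fold change −0.06, SE 0.26, edgeR adjusted p 0.895). The large-subunit rRNA mt-Rnr2 (chrM:1094-2675) had 3941 and 3928 CPM against 3380, 2221 and 3610 CPM. It was the only one of the 9 messengers and rRNAs whose groups did not overlap, where 24.9% of all genes tested lay wholly higher and 24.5% wholly lower. Its log2 fold change of 0.36 (SE 0.30) did not pass (adjusted p 0.449).

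**Figure D3:**
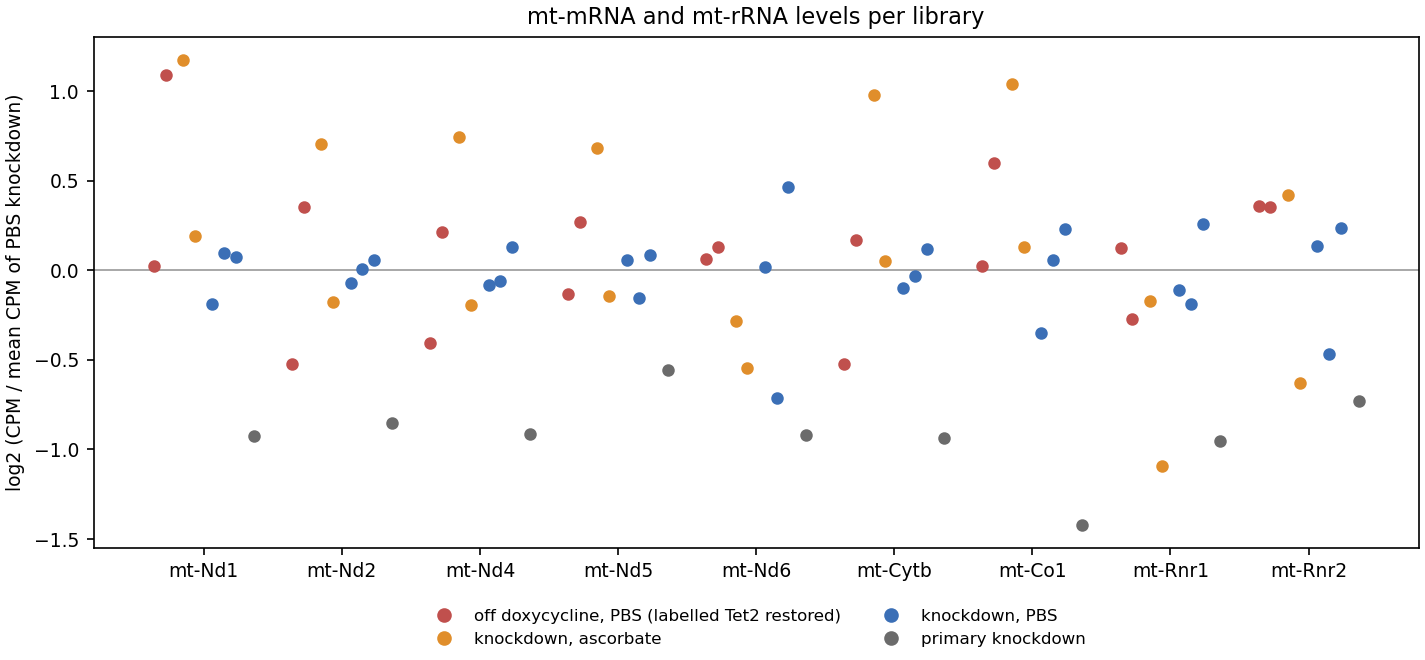
Level of each messenger and rRNA with at least 10 counts in each library, as log2 of its CPM over the mean CPM of the 3 PBS knockdown mice (line at 0), with 1 point per library coloured by group. Mouse 28 lies above the line for all but mt-Nd6 and mt-Rnr1, and the primary library lies below every secondary PBS knockdown library for all 9 genes.

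Ascorbate was compared with PBS under sustained knockdown, which shares its PBS knockdown libraries with the comparison above. Here too 0 of 15 mitochondrial genes passed edgeR's test, where 2.86% of 12137 genes passed. At an unadjusted p under 0.05 there was 1, the tRNA mt-Tm, against 23.6% of all genes tested. DESeq2 and limma voom each called 0 mitochondrial genes, beside 12.5% and 8.33% of genes tested. Without a count filter edgeR called 5: mt-Nd1, mt-Co1, mt-Cytb and the nearly uncounted mt-Co2 higher, and mt-Rnr1 lower. Of the 7 messengers 6 had positive estimates, and their median was 0.34 on the log2 scale, beside −0.01 over all genes tested.

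mt-Nd1 had 45479 and 22973 CPM in the ascorbate mice 28 and 30, against 17677, 21584 and 21197 CPM in mice 16, 17 and 19. It was the only messenger whose ascorbate libraries both exceeded the PBS range, where 22.4% of all genes tested did so. Its estimate was 0.75 on the log2 scale (SE 0.34, edgeR adjusted p 0.220), and 0.19 without mouse 28. mt-Co1 had 57231 and 30504 CPM against 21869, 29014 and 32687 CPM, a log2 fold change of 0.65 (SE 0.29, adjusted p 0.218) that was 0.13 without mouse 28. mt-Cytb had 32969 and 17373 CPM against 15639, 16384 and 18204 CPM, at 0.58 (SE 0.28, adjusted p 0.246) and 0.05 without mouse 28. In both genes mouse 30 lay inside the PBS knockdown range and mouse 28 far above it.

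mt-Nd2 (18350 and 9959 CPM against 10704, 11306 and 11711 CPM), mt-Nd4 (15190 and 7948 CPM against 8565, 8719 and 9952 CPM) and mt-Nd5 (13206 and 7441 CPM against 8542, 7374 and 8730 CPM) had log2 fold changes of 0.32, 0.34 and 0.32. For mt-Nd2 and mt-Nd4 the ascorbate mice stood on opposite sides of the PBS knockdown range. Without mouse 28 these estimates were −0.18, −0.19 and −0.15. The 6 heavy-strand messengers were 1.77 to 1.98 times as high in mouse 28 as in mouse 30, a gap wider than the fitted fold of ascorbate over PBS in any of them, at most 1.69 (mt-Nd1).

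Estimates for mt-Nd6 and both rRNAs were negative. mt-Nd6 had 142 and 119 CPM under ascorbate, against 175, 106 and 239 CPM under PBS, a log2 fold change of −0.42 (SE 0.29, adjusted p 0.399). mt-Rnr1 had 3036 and 1604 CPM against 3162, 3000 and 4078 CPM, at −0.57 (SE 0.27, edgeR adjusted p 0.229), with mouse 30 lowest of the 7 secondary libraries and mouse 28 within the PBS range. mt-Rnr2 had 4107 and 1989 CPM against 3380, 2221 and 3610 CPM, with mouse 28 above and mouse 30 below every PBS knockdown library, at −0.02 (SE 0.30, adjusted p 0.970).

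Setting mice labelled Tet2 restored directly against ascorbate mice gave 0 of 15 mitochondrial genes past the adjusted threshold in edgeR, where 0.00824% of genes passed. At an unadjusted p under 0.05 there was 1, mt-Cytb, against 16.2% of all genes tested, and DESeq2 and limma voom called 0, beside 3.97% and 0.00824% of genes tested. mt-Cytb had 11675 and 18855 CPM in mice 21 and 23, against 32969 and 17373 CPM in mice 28 and 30, which overlap (log2 fold change −0.71, SE 0.31, edgeR adjusted p 0.303). mt-Nd6 was the only messenger without overlap, at 181 and 190 CPM against 142 and 119 CPM, where 22.8% of all genes tested lay wholly higher (log2 fold change 0.52, SE 0.31, adjusted p 0.444). Both rRNAs had positive estimates, 0.51 for mt-Rnr1 and 0.38 for mt-Rnr2.

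Secondary PBS knockdown mice were set against the single primary library, which has no replicate and is assumed in the fit to vary like the other groups. All 7 messengers and both rRNAs had higher levels in each of mice 16, 17 and 19 than in mouse 12, where 29.7% of all genes tested lay wholly higher and 31.8% wholly lower. edgeR called 0 of 15 mitochondrial genes, where 0.115% of 13024 genes passed (0.0461% higher and 0.0691% lower). At an unadjusted p under 0.05 there were 4 messengers and 1 rRNA, all higher, against 9.09% of all genes tested. DESeq2 and limma voom each called 1, mt-Co1, beside 1.93% and 2.09% of genes tested. Without a count filter edgeR called 6: mt-Co1, mt-Cytb, mt-Nd1, mt-Nd4, mt-Nd6 and mt-Rnr1. The median log2 fold change of the messengers was 0.92, beside 0.01 over all genes tested.

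mt-Co1 had 21869, 29014 and 32687 CPM in mice 16, 17 and 19, against 10420 CPM in mouse 12 (log2 fold change 1.42, SE 0.41, edgeR adjusted p 0.281). With DESeq2 its adjusted p was 0.00925 and with limma voom 0.0493, and over 10 alternatives to the edgeR fit it ran from 5.66e-05 to 0.322. mt-Nd1 had 17677, 21584 and 21197 CPM against 10617 CPM, at 0.92 (adjusted p 0.602), and mt-Cytb had 15639, 16384 and 18204 CPM against 8740 CPM, at 0.94 (adjusted p 0.484). mt-Nd5 had the smallest estimate of the messengers, 0.56, from 8542, 7374 and 8730 CPM against 5580 CPM. mt-Nd2, mt-Nd4 and mt-Nd6 lay between, at 0.85, 0.92 and 0.92, with 6219, 4813 and 91.6 CPM in mouse 12. mt-Rnr1 had 3162, 3000 and 4078 CPM against 1763 CPM (0.95, adjusted p 0.432), and mt-Rnr2 had 3380, 2221 and 3610 CPM against 1851 CPM (0.73, adjusted p 0.647). Marker lists also set mouse 12 apart: B and plasma cell genes summed to 16.4 to 62.4 CPM in the secondary libraries against 265 CPM in mouse 12, neutrophil genes to 0.44 to 12.2 CPM against 42.1 CPM, and progenitor genes to 159 to 386 CPM against 417 CPM. Their part in these differences was not tested. Passage, recipient and library coincide here and cannot be told apart.

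The balance among mitochondrial transcripts also varied between mice. Ratios within a library do not depend on how libraries are scaled, but they were chosen after values had been seen and are given as a description, with no test. Messenger counts were 10.8 and 20.6 times the rRNA counts in mice 21 and 23, 25.6 and 26.8 times in the ascorbate pair, 12.7, 18.1 and 13.4 times under PBS knockdown, and 12.9 times in mouse 12. The ascorbate mice thus held the 2 highest values of 8, close together although their total mitochondrial shares were far apart. mt-Nd1 counts were 2.73 and 4.33 times those of mt-Nd5 in mice 21 and 23, 3.44 and 3.09 times in the ascorbate pair, 2.07, 2.93 and 2.43 times under PBS knockdown, and 1.90 times in mouse 12. These genes differ in length, at 957 and 1824 bases. Mice 16, 12 and 19 had the highest rank correlations with transcript length (0.42, 0.39 and 0.22) and the lowest of these ratios. Mouse 21, with the lowest correlation (−0.45), came next at 2.73. The part of length in this ratio was not tested.

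mt-Nd6 is read from the strand opposite to the other messengers. It had 2.19 and 1.37 counts per 1000 heavy-strand messenger counts in mice 21 and 23, 0.780 and 1.23 in the ascorbate pair, 2.11, 1.12 and 2.33 under PBS knockdown, and 1.98 in mouse 12. The PBS knockdown mice alone spanned every value but that of mouse 28. The counting strand is not given in the sources used here, so reads of mt-Nd6 and of antisense RNA over it cannot be told apart. The ratio of mt-Rnr1 to mt-Rnr2 counts was 0.944 and 0.720 in mice 21 and 23, 0.739 and 0.806 in the ascorbate pair, 0.936, 1.35 and 1.13 under PBS knockdown, and 0.952 in mouse 12. The 3 lowest of these belong to mice 23, 28 and 30.

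**Figure D4:**
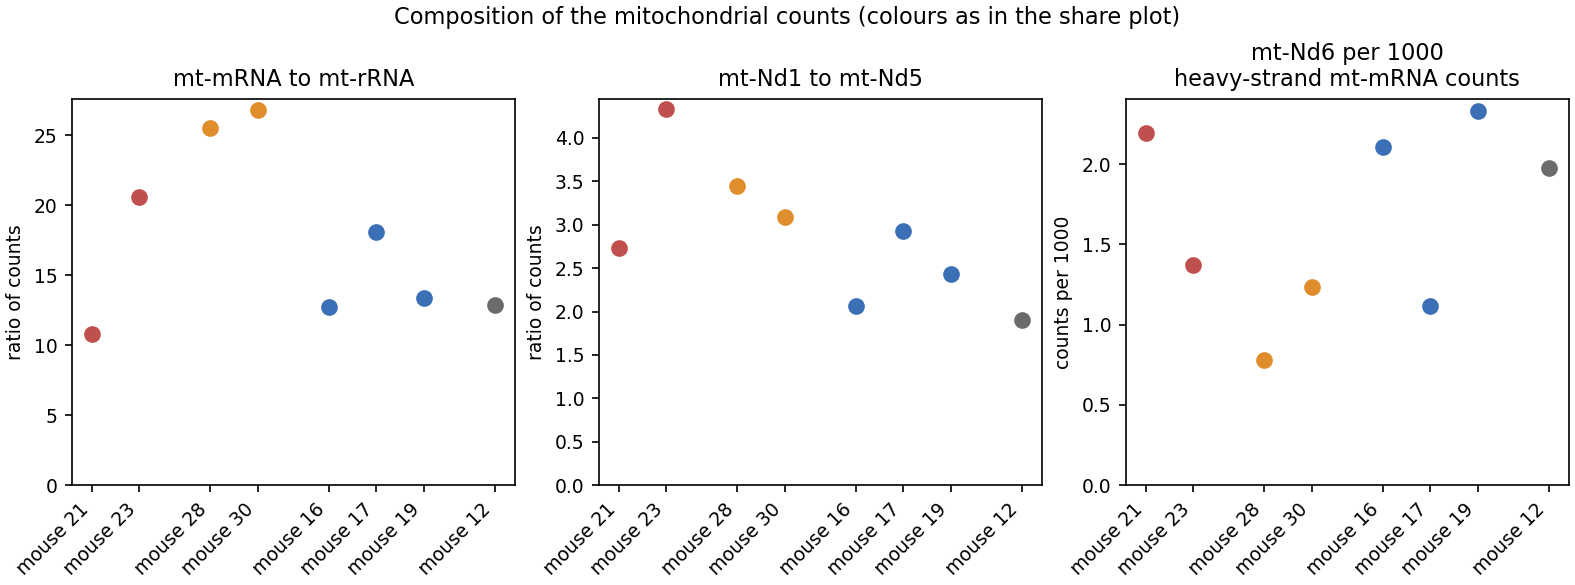
Count ratios within each library, by mouse and coloured by group: messengers to rRNAs (left), mt-Nd1 to mt-Nd5 (middle) and mt-Nd6 per 1000 heavy-strand messenger counts (right). Mice 28 and 30 have the 2 highest messenger to rRNA ratios, 25.6 and 26.8, while mouse 23 has the highest mt-Nd1 to mt-Nd5 ratio, 4.33.

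How far the mice of a group differed depended on the transcript. Mouse 23 was 1.32 to 2.09 times as high as mouse 21 for the 6 heavy-strand messengers, 1.05 times for mt-Nd6, 0.759 times for mt-Rnr1 and 0.997 times for mt-Rnr2. In the ascorbate pair the rRNAs differed about as much as the messengers, at 1.89 times for mt-Rnr1 and 2.07 times for mt-Rnr2 in mouse 28 over mouse 30, against 1.20 times for mt-Nd6. The PBS knockdown mice differed least in mt-Nd2, with a highest level 1.09 times the lowest, and most in mt-Nd6, at 2.26 times.

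The tRNA genes were near the limit of these poly(A)-enriched libraries. Of 17 outside the copied stretch 7 had 0 counts in every library: mt-Ta, mt-Tn, mt-Tc and mt-Ty, which are encoded next to each other on the minus strand, and mt-Th, mt-Ts2 and mt-Tl2, which are adjacent on the plus strand. The 6 with a mean of at least 10 counts were mt-Ti (99.6), mt-Tl1 (44.4), mt-Tw (40.6), mt-Tt (29.1), mt-Tm (28.5) and mt-Tp (16.1), for isoleucine, leucine, tryptophan, threonine, methionine and proline. Most of these abut a counted messenger, and without a strand or an overlap setting their counts cannot be told apart from reads of a neighbour that runs into them.

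mt-Tm, encoded just before mt-Nd2, had 16 and 12 counts in mice 28 and 30, against 52, 38 and 39 in mice 16, 17 and 19, and it lay wholly lower, as did 23.5% of all genes tested (log2 fold change −1.22, SE 0.51, edgeR adjusted p 0.189). Mice 21 and 23 had 31 and 13 counts of it, also below the PBS knockdown libraries (−0.79, SE 0.49, adjusted p 0.309). mt-Ti, encoded just after mt-Nd1, had 102 and 78 counts in mice 21 and 23, 72 and 73 in the ascorbate pair, 145, 96 and 141 under PBS knockdown, and 90 in mouse 12. In CPM its levels overlapped between the secondary groups. mt-Tl1, between mt-Rnr2 and mt-Nd1, had 28 and 51 counts in mice 21 and 23, 74 and 45 in the ascorbate pair, 46, 23 and 59 under PBS knockdown, and 29 in mouse 12. None of the 6 passed in any of the 4 comparisons.

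Nuclear genes that serve the mitochondrial genome were followed beside it, in lists chosen with earlier results of these data known. Tfam, which packages mitochondrial DNA and opens its promoters, averaged 55.4 CPM in mice labelled Tet2 restored and 57.7 CPM under ascorbate, against 65.8 CPM under PBS knockdown, or −0.25 (SE 0.15, edgeR adjusted p 0.289) and −0.20 (SE 0.15) on the log2 scale. The mitochondrial RNA polymerase Polrmt had 30.0 and 32.0 CPM against 32.1 CPM in the same comparisons, at −0.10 and −0.01. Lrpprc, which with Slirp stabilises mitochondrial messengers, averaged 121 CPM in mice labelled Tet2 restored and 169 CPM under ascorbate, against 223 CPM under PBS knockdown. It stood at −0.88 (SE 0.20) in mice labelled Tet2 restored, just outside the threshold (edgeR adjusted p 0.0537), and at −0.41 under ascorbate (SE 0.20, adjusted p 0.244), while Slirp was at −0.09 and −0.19. The polymerase Polg, which copies mitochondrial DNA, was at −0.90 (adjusted p 0.0541) and −0.37. Other list members lay as near the threshold in mice labelled Tet2 restored, in both directions. Tk2, of the same replication and maintenance list as Polg, was at 0.98 (SE 0.23, edgeR adjusted p 0.0542). Pink1 was at 0.96, Ddit3 at 0.93 and Pnpt1 at −0.89 (edgeR adjusted p 0.0502 for each). DESeq2 called both Lrpprc (adjusted p 0.00134) and Polg (adjusted p 0.00143) in mice labelled Tet2 restored, beside 17.8% of genes tested. Over edgeR fits that left out 1 library, the log2 fold change ran from −1.20 to −0.61 for Lrpprc and −1.22 to −0.64 for Polg. The helicase Twnk was at −0.23 and −0.65 (edgeR adjusted p 0.0989 under ascorbate). DESeq2 called Twnk under ascorbate (adjusted p 0.0365), beside 12.5% of genes tested.

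Under ascorbate a few nuclear genes of these lists did pass, beside 2.86% of all genes tested. In mitochondrial DNA replication and maintenance 2 of 16 members fell and 0 rose: Rrm2b, a ribonucleotide reductase subunit that supplies nucleotides, at 3.62 CPM against 9.32 CPM under PBS (log2 fold change −1.37, SE 0.29, edgeR adjusted p 0.0448), and Rnaseh1, which removes RNA from RNA-DNA hybrids, at 14.1 CPM against 25.4 CPM (−0.86, SE 0.19, adjusted p 0.0448). Gtpbp3, which modifies mitochondrial tRNAs, fell among 17 rRNA and tRNA modification genes, to 8.13 CPM under ascorbate against 18.8 CPM under PBS (−1.22, SE 0.23, adjusted p 0.0349). Mars2, the mitochondrial methionyl-tRNA synthetase, fell among 17 synthetases (−0.82, SE 0.18, adjusted p 0.0448), and Myc, which among much else promotes mitochondrial biogenesis, fell among 9 tested biogenesis regulators (−1.16, SE 0.24, adjusted p 0.0414). Bnip3, an outer membrane receptor for mitophagy, rose among 10 tested outer membrane and mitophagy genes (1.49, SE 0.26, adjusted p 0.0308). Each of these 6 calls was lost when any 1 of mice 16, 17, 19, 28 and 30 was left out, with adjusted p-values up to 0.222, while the direction held in all 7 such fits. The FPKM tests did not call Rrm2b or Mars2, and with the length offset Mars2 was not called either.

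No member of the transcription, RNA processing, translation, ribosomal protein, complex I, II, III, IV, V or stress response lists passed in edgeR under ascorbate, and in mice labelled Tet2 restored no gene of any list did, as for all genes. Without mouse 21 the count over all genes in that comparison was 1692. The median log2 fold change under ascorbate was 0.32 over 15 nuclear complex V genes, of which 15 were positive, 0.30 over 11 of complex IV, 0.23 over 9 of complex III and 0.17 over 36 of complex I, beside −0.01 over all genes tested. It was −0.41 over 16 replication genes, −0.45 over 17 rRNA and tRNA modification genes, −0.35 over 13 translation genes and −0.31 over 10 transcription genes. In mice labelled Tet2 restored the medians were 0.20, 0.34, 0.10 and 0.24 for complexes V, IV, III and I, beside −0.0020 over all genes tested. There they were −0.11 for replication, −0.01 for modification, −0.29 for translation and −0.07 for transcription, with −0.30 over 17 synthetases, −0.30 over 9 biogenesis regulators and −0.21 over 22 RNA processing genes. The PBS knockdown libraries themselves differed. As a mean of log2(CPM + 0.5) per library relative to the PBS knockdown mean, complex V stood at 0.177 and 0.076 in mice 21 and 23, 0.366 and 0.226 under ascorbate, and −0.159, 0.182 and −0.022 in mice 16, 17 and 19. Complex I stood at 0.23 and 0.12, 0.28 and 0.082, and −0.15, 0.18 and −0.030 in the same mice. Mouse 17 thus lay above both mice labelled Tet2 restored for complex V, and within the range of each other secondary group for complex I. The comparisons share their PBS knockdown libraries. The rank correlation of a library's deviation with transcript length also differed between them. It was −0.45 and −0.24 in mice 21 and 23, and −0.26 and 0.034 in mice 28 and 30. In the PBS knockdown mice 16, 17 and 19 it was 0.42, −0.066 and 0.22. Its part in the list medians was not tested.

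**Figure D5:**
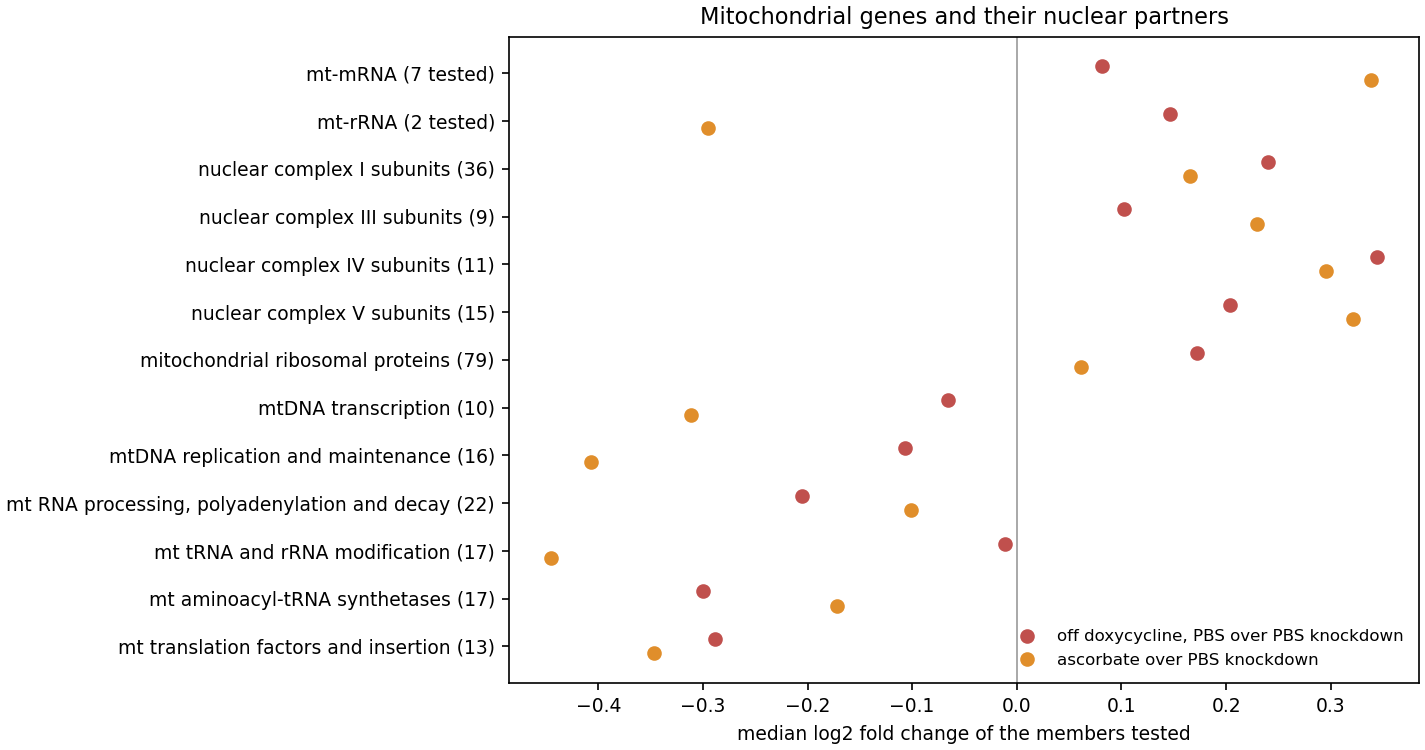
Median log2 fold change of mitochondrial messengers, mitochondrial rRNAs and nuclear gene lists (number tested in brackets) in mice labelled Tet2 restored over PBS knockdown and in ascorbate over PBS knockdown. Respiratory chain lists lie right of 0 in both comparisons, and the replication and transcription lists lie left of 0, with medians of −0.41 and −0.31 under ascorbate. The part of transcript length in these medians was not tested.

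Some markers of other cell types differed between the groups. The 10 macrophage genes, all above 0 counts in every library, summed to 26.0 and 10.4 CPM in mice 21 and 23, 21.7 and 21.4 CPM in mice 28 and 30, 39.2, 65.2 and 71.6 CPM under PBS knockdown, and 21.3 CPM in mouse 12, and 3 of 10, Vcam1, Mertk and Mrc1, fell under ascorbate, beside 1.77% of all genes tested. All 3 calls were lost without mouse 16, 19, 28 or 30, and without mouse 17 Mertk and Mrc1 were lost too. DESeq2 did not call Mertk, and with the length offset Mrc1 was not called. The macrophage sums of the labelled Tet2 restored and ascorbate mice all lay below those of the PBS knockdown mice. The 6 mast cell and basophil genes summed to 1078 and 1328, 748 and 1010, 559, 431 and 582, and 1337 CPM in the same order of mice, wholly higher in both other secondary groups than under PBS knockdown. The 9 erythroid genes summed to 10908 and 7283, 10054 and 5343, 6736, 12395 and 5061, and 4054 CPM, and overlapped between the secondary groups. Their part in the mitochondrial levels was not tested.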

How the data were processed

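RNA-seq was available for 8 libraries in 4 groups. The authors deposited raw counts per gene and, for the same libraries, FPKM values that divide those counts by full gene length. STAR, featureCounts and DESeq2 with mm10 (GRCm38) are named, per the submitters' processing notes, while versions, strand and the treatment of reads with several matches are not given in the sources used here. RNA was enriched with oligo-dT beads, per the labels' protocols. No column of either table was left out.

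Tests were run over all genes in edgeR 4.0.16 under R 4.3.3, by quasi-likelihood, with TMM factors. Genes were kept by filterByExpr (minimum count 10), p-values were adjusted by Benjamini-Hochberg, and calls were made under 0.05. The 7 secondary libraries share 1 fit for 3 comparisons, and all 8 were fitted for secondary against primary. The script was tested on simulated counts. Alternatives were DESeq2 1.42.0 (size factors and Wald test), limma 3.58.1 (voom, and its trended test of deposited FPKM on the log2 scale with 0.1 or 1 added, for genes that reached 1 FPKM in 2 or more libraries), library totals, scaling on nuclear genes, no count filter, other sets of libraries, a length offset and leaving out each library. The mitochondrial share was compared by exact permutation.

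Copies were found with blastn 2.17.0 at 90% identity or more among nuclear GENCODE M21 transcripts. The rule for named genes took all 13 messengers, both rRNAs, tRNAs with a mean of at least 10 counts, 12 fixed nuclear genes and up to 3 members per list with the smallest p, of which examples are given. Members and lists were chosen with earlier results of these data known. Each library is 1 mouse, and p-values measure the spread between these libraries. Wilson and Poisson intervals, and the limit of 3 counts where a gene had 0, allow for counting error alone. Depth was 18.1 M to 34.2 M counts per library.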

Additional observations from a re-analysis of the deposited data

Results flagged for a closer look

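Gm28437, the chromosome 1 copy of mt-Co3, is not a mitochondrial row and enters no comparison. It had 31 counts in mouse 28 and 27539 in mouse 30, both given ascorbate, 39 and 39 in mice 21 and 23, labelled Tet2 restored, 13, 0 and 0 in the PBS knockdown mice 16, 17 and 19, and 15 in the primary mouse 12. The value of 27539 in mouse 30 is what draws attention, since every other library, mouse 28 of the same treatment included, lies at or below 39. It corresponds to 1151 CPM, 1.15% of the mitochondrial counts of that library, and its level per kilobase was 6.12% of that of mt-Nd1 there. mt-Co3, identical to it over 783 bases, had 0 counts in mouse 30 as in every other library. The cause was not tested. No group has enough libraries for a test of single outlying values.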

How the results depend on the processing

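Counts of mitochondrial genes past the threshold stayed at 0 in the first 3 comparisons under every alternative run but 1. Without a count filter edgeR called 1 in mice labelled Tet2 restored against PBS knockdown (mt-Nd1), 5 under ascorbate against PBS (mt-Co1, mt-Cytb, mt-Nd1 and mt-Co2 higher, mt-Rnr1 lower, with mt-Co2 resting on 9 counts in 1 library), 1 in mice labelled Tet2 restored against ascorbate (mt-Cytb) and 6 in secondary against primary, where DESeq2 and limma voom called 1 each. The cause was not tested. Leaving out 1 library gave 0 to 0 mitochondrial genes in each comparison. Over the same settings the difference in mitochondrial share ran from −0.70 to 4.31 points for labelled Tet2 restored minus PBS knockdown, −0.46 to 6.93 for ascorbate minus PBS and −5.13 to 2.27 for labelled Tet2 restored minus ascorbate.

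Estimates changed sign outside the leave-one-out fits for mt-Nd6 in mice labelled Tet2 restored (−0.10 with limma voom, −0.26 with the length offset), mt-Nd5 (−0.11 with the length offset) and mt-Nd1 against ascorbate (0.016 with library totals). Leaving out 1 library, the log2 fold changes that changed sign ran as follows: mt-Nd6 −0.16 to 0.40, mt-Nd2 −0.53 to 0.36, mt-Nd4 −0.41 to 0.22, mt-Rnr1 −0.27 to 0.12, mt-Cytb −0.53 to 0.18, mt-Nd5 −0.14 to 0.27 in labelled Tet2 restored over PBS knockdown; mt-Rnr2 −0.63 to 0.40, mt-Nd2 −0.18 to 0.69, mt-Nd4 −0.19 to 0.73, mt-Nd5 −0.15 to 0.67 in ascorbate over PBS; mt-Nd1 −0.74 to 0.46, mt-Nd2 −0.85 to 0.16, mt-Co1 −0.69 to 0.21, mt-Nd4 −0.79 to 0.13, mt-Nd5 −0.59 to 0.23, mt-Rnr2 −0.051 to 0.98 in labelled Tet2 restored over ascorbate. Library totals moved the median log2 fold change of all genes by −0.11 under ascorbate and by 0.12 in labelled Tet2 restored against ascorbate, and changed the split of all genes called under ascorbate to 83 higher and 300 lower, beside 132 higher and 215 lower.

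All genes called in edgeR numbered 0 in labelled Tet2 restored over PBS knockdown, but 367 with DESeq2 size factors, 233 with nuclear scaling, 2207 with no filter, 1951 with DESeq2 and 0 to 1692 leaving out 1 library. Under ascorbate they numbered 347, but 1498 with no filter, 1339 with DESeq2, 1011 with voom, 855 with only those groups fitted and 2 to 796 leaving out 1 library. In labelled Tet2 restored over ascorbate they numbered 1, but 582 with no filter, 444 with DESeq2, 3 with the FPKM values, all 8 libraries or the length offset, and 0 to 5 leaving out 1 library. In secondary over primary they numbered 15, but 467, 222 and 272 with no filter, DESeq2 and voom, 8 with log2(FPKM + 0.1), and 6 to 45 leaving out 1 library. No paired analysis was possible because the mouse numbers are not shared between groups. The groups of 2 and 3 libraries limit every comparison, and at 0 or near 0 counts the 6 messengers in the copied stretch cannot be compared at any depth given here.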
